A study of Mus musculus with 20 samples.

Results

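Marker genes of T cells and natural killer (NK) cells were followed through tumors and livers of mice in which liver cancer had been induced by gene transfer. The 10 genes were Cd3e, Cd4, Cd8a, Nkg7, Gzma, Gzmb, Prf1, Ncr1, Foxp3 and Pdcd1, taken by symbol as 10 of the 50559 gene rows of the count tables, and all 10 passed the filter on low counts. The 20 RNA-seq libraries came from wild-type C57Bl6J mice, 5 per group: tumors induced by Aldafermin + MYC, by FGF19 + MYC or by sgTrp53 + MYC, and livers. Plasmids reached the liver by hydrodynamic gene transfer, a rapid tail vein injection of a large volume, into female mice with an intact immune system. FGF19 is a human gut hormone that represses bile acid synthesis, Aldafermin is an FGF19 analog altered at its N-terminus, MYC is an oncogenic transcription factor expressed from its own plasmid in all 3 tumor groups, and sgTrp53 is a CRISPR guide that inactivates the tumor suppressor gene Trp53. The transgenes enter only a fraction of hepatocytes, each tumor library is a single dissected nodule, and the labels give neither the age of the mice nor the time after injection. The livers are labelled non treated, whereas the study describes its control livers as injected with an RFP plasmid, and the treatment field of the sgTrp53 + MYC tumors reads none, so that their group was taken from the titles.

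T cells recognize antigen through a receptor whose signal is carried by the CD3 chains. CD4 marks helper and regulatory T cells and is also found on some other leukocytes, while CD8 marks cytotoxic T cells. Cytotoxic T cells and NK cells kill by releasing perforin, which opens the target membrane, and granzymes, the proteases that then enter the target. The healthy mouse liver is rich in NK cells and other innate-like lymphocytes. FOXP3 is the defining transcription factor of regulatory T cells, and PD-1, the product of Pdcd1, is an inhibitory receptor of activated T cells and the target of checkpoint antibodies used in liver cancer.

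The libraries held between 18004977 and 66354724 reads on genes, with the 5 sgTrp53 + MYC libraries the deepest (54042455 or more). Their counts were deposited apart from those of the other groups, and they had 11.1% to 14.6% of reads over more than 1 overlapping gene model (the ambiguous class of the counting), against at most 6.3% in the other groups, so that this group and its table cannot be told apart. Levels are counts per 1000000 reads on genes (CPM) after TMM scaling. With this scaling the median log2 fold change of all genes tested against liver was 0.29 in Aldafermin + MYC, 0.20 in FGF19 + MYC and 0.35 in sgTrp53 + MYC tumors; with DESeq2 size factors it was 0.06, 0.00 and 0.09. In bulk RNA, fewer cells of a type and less RNA per cell cannot be told apart.

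The 10 genes were scarce transcripts. Cd3e had 3 to 120 reads per library, Foxp3 0 to 24 and Pdcd1 0 to 35, and only 4 of the 10 genes reached 1 CPM in 5 libraries. Per length of annotated exon, Nkg7 led in the livers with 1.22 reads per kilobase of exon, scaled as CPM (RPKM), followed by Gzma at 0.477 and Gzmb at 0.453 RPKM, while Cd3e stood at 0.151, Pdcd1 at 0.0202 and Foxp3 at 0.00726 RPKM. In Aldafermin + MYC tumors Nkg7 (1.29 RPKM), Gzma (1.2) and Gzmb (1.05) were again the highest and Cd4 followed at 0.665 RPKM. Prf1 and Cd8a were at 0.237 RPKM or below in every group.

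**Figure D1:**
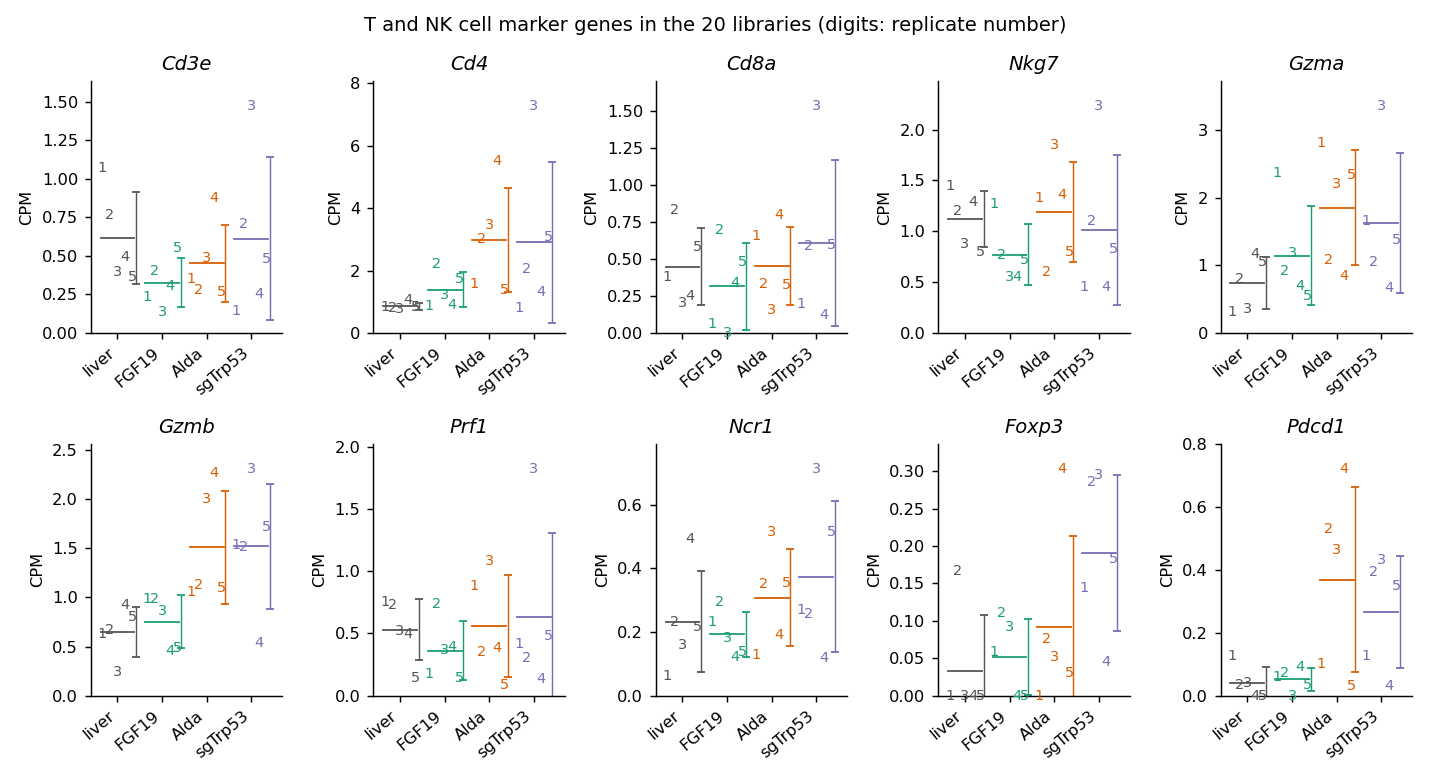
Each panel plots 1 marker gene, with TMM-scaled counts per 1000000 reads (CPM) on a linear axis from 0 and the 4 groups side by side (FGF19, Alda and sgTrp53 are the 3 tumor groups with MYC). Digits are single libraries by replicate number, horizontal lines are group means and vertical bars the SD of 5 libraries, drawn down to 0 at most. Replicate 3 of the sgTrp53 + MYC tumors is the highest library of its group in all 10 panels, and the 5 Cd4 values of the livers lie between 0.757 and 1.04 CPM.

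Cd4 rose in Aldafermin + MYC and sgTrp53 + MYC tumors, whereas the other T cell identity genes, Cd3e and Cd8a, passed no test. Cd4 (chr6:124841655-124874758, GRCm39) was at 0.818, 0.797, 0.757, 1.04 and 0.833 CPM in the 5 livers. In Aldafermin + MYC tumors it was at 1.58, 3.02, 3.46, 5.50 and 1.39 CPM. These tumors all lay above all livers, with the lowest tumor library at 1.39 CPM. The log2 fold change was 1.81 ± 0.51 (SE, adjusted p = 0.00486, edgeR). Cd4 in sgTrp53 + MYC tumors was at 0.791, 2.06, 7.27, 1.31 and 3.08 CPM, where replicate 1 fell within the range of the livers. The log2 fold change was 1.77 ± 0.51 (adjusted p = 0.00546, edgeR). FGF19 + MYC tumors had 0.866, 2.20, 1.23, 0.910 and 1.72 CPM, overlapping the livers, with a log2 fold change of 0.71 ± 0.51 (adjusted p = 0.246, edgeR).

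Cd3e, the epsilon chain of the CD3 complex (chr9:44910037-44920925), had means of 0.617 ± 0.298 CPM (SD, n = 5) in livers, 0.451 ± 0.251 in Aldafermin + MYC, 0.325 ± 0.159 in FGF19 + MYC and 0.612 ± 0.528 in sgTrp53 + MYC tumors. Its log2 fold changes against liver were -0.45 ± 0.56, -0.89 ± 0.58 and 0.00 ± 0.54 (SE), with adjusted p of 0.514, 0.20 and 0.995. The groups overlapped in every comparison. Cd8a, the CD8 alpha chain (chr6:71350411-71356157), had means of 0.447 ± 0.260 CPM in livers, 0.451 ± 0.264 in Aldafermin + MYC, 0.314 ± 0.291 in FGF19 + MYC and 0.607 ± 0.563 CPM in sgTrp53 + MYC tumors. Replicate 3 of FGF19 + MYC held no Cd8a read, and the smallest adjusted p of Cd8a against liver was 0.617. In the annotation, Cd3e overlaps a lncRNA model (Gm48719) on the opposite strand and a model of type TEC (Gm48720) on its own, and the strand setting of the authors' counting is not given in the sources used here.

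Of the 5 genes of the killing machinery and of NK cells, Gzmb rose in Aldafermin + MYC and sgTrp53 + MYC tumors and Gzma in Aldafermin + MYC tumors. Nkg7, Prf1 and the NK receptor gene Ncr1 passed no test in any of the 3 tumor groups. The promoters of Gzma and Gzmb are printed here because these were the granzyme genes that rose and because 5 of the 9 marker genes with a RefSeq promoter entry held the letters TGTGGT, the core of the motif of RUNX factors, which are known to act in cytotoxic lymphocytes. Windows run from 250 bases before to 50 after the start of the gene (RefSeq, GRCm38.p6, minus strand, chr13:113100932-113101231 and chr14:56262285-56262584), 5′ to 3′ along the gene. Capitals mark TGTGGT or its reverse complement ACCACA.
Gzma promoter: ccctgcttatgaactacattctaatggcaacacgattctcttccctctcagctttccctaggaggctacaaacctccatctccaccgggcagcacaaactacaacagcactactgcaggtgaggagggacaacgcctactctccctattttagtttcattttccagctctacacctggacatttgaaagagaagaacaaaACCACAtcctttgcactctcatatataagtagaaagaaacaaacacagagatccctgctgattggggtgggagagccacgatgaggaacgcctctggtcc
Gzmb promoter: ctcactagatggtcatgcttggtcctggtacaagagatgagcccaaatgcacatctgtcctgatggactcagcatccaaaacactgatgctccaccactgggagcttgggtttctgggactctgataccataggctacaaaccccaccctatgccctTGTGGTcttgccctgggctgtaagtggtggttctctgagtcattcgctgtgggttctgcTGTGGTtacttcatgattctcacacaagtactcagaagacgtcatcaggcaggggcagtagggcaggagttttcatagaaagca

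TGTGGT on either strand was present in the windows of Nkg7, Gzma, Gzmb, Prf1 and the NK receptor gene Ncr1, and absent from those of Cd3e, Cd8a, Foxp3 and Pdcd1. Of all 32851 windows in the table, 16.8% held it. A T-box motif, TCACACC, was present in 1 of the 9 windows (Nkg7) and in 3.98% of all windows, and an ETS core, GGAAGT, in 2 of the 9 (Cd3e and Prf1) and in 23.8% of all. The 3 motifs were chosen after the expression values were known, and a match in letters is not a binding site.

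Gzmb, a granzyme that triggers apoptosis of the target cell (chr14:56496295-56499717, GRCm39), was at 0.629, 0.664, 0.239, 0.922 and 0.797 CPM in livers. Aldafermin + MYC tumors had 1.06, 1.13, 2.00, 2.27 and 1.10 CPM. All of these exceeded all livers and also all FGF19 + MYC tumors, which had 0.982, 0.988, 0.865, 0.455 and 0.481 CPM. Gzmb in sgTrp53 + MYC tumors was at 1.53, 1.51, 2.31, 0.537 and 1.72 CPM, with replicate 4 inside the range of the livers. The log2 fold change against liver was 1.22 ± 0.42 (adjusted p = 0.0177) in Aldafermin + MYC and 1.23 ± 0.42 (adjusted p = 0.0161) in sgTrp53 + MYC tumors, where DESeq2 size factors ended the call (0.97, adjusted p = 0.0546). In FGF19 + MYC tumors it was 0.21 ± 0.42 (adjusted p = 0.698). Without replicate 4 of Aldafermin + MYC, the Gzmb value against liver was 1.03 with an adjusted p of 0.052.

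Gzma, a granzyme of NK cells and of some cytotoxic T cells (chr13:113230355-113237524), was at 0.315, 0.797, 0.359, 1.17 and 1.05 CPM in livers. It was at 2.81, 1.08, 2.20, 0.834 and 2.34 CPM in Aldafermin + MYC tumors, of which replicates 2 and 4 overlapped the livers. The log2 fold change was 1.33 ± 0.51 (adjusted p = 0.0325), and it passed the threshold in only 4 of the 10 fits that left out a library of the compared groups, with adjusted p from 0.0189 to 0.0828. Those that lost it left out replicate 1, 3 or 5 of the Aldafermin + MYC tumors (adjusted p = 0.0828, 0.0571 and 0.0618) or replicate 1, 2 or 3 of the livers (0.0791, 0.0517 and 0.0813). In sgTrp53 + MYC tumors the mean was 1.62 ± 1.04 CPM (SD) and the log2 fold change 1.13 ± 0.51 (adjusted p = 0.0631), and in FGF19 + MYC tumors they were 1.14 ± 0.725 CPM and 0.61 ± 0.52 (adjusted p = 0.330). Gzma in sgTrp53 + MYC tumors passed without liver replicate 4 (1.34, adjusted p = 0.0464) or without tumor replicate 4 (1.33, adjusted p = 0.0339).

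Nkg7, a granule protein needed for full cytotoxicity (chr7:43086497-43087678), had a mean of 1.12 ± 0.276 CPM in livers, 1.19 ± 0.494 in Aldafermin + MYC, 0.771 ± 0.297 in FGF19 + MYC and 1.01 ± 0.737 CPM in sgTrp53 + MYC tumors. Its log2 fold changes against liver were 0.09, -0.54 and -0.14 in that order of tumors, with SE of 0.44, 0.44 and 0.43. Prf1, which encodes perforin (chr10:61133546-61140461), was at 0.528 ± 0.245 CPM in livers and between 0.360 (FGF19 + MYC) and 0.629 CPM (sgTrp53 + MYC) on average in tumors. Within Aldafermin + MYC tumors it ranged from 0.0888 to 1.08 CPM. Ncr1, the NK cell receptor NKp46 (chr7:4340710-4348171), had 1 to 58 reads per library and means between 0.193 (FGF19 + MYC) and 0.374 CPM (sgTrp53 + MYC), with the livers at 0.233 ± 0.159 CPM. The smallest adjusted p of these 3 genes against liver was 0.288, for Ncr1 in sgTrp53 + MYC tumors.

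Pdcd1 had the largest log2 fold changes of the 10 genes against liver in Aldafermin + MYC and sgTrp53 + MYC tumors, from very few reads. Pdcd1 (chr1:93966027-93980312) had 4 reads in all 5 livers together, 7 in FGF19 + MYC, 63 in Aldafermin + MYC and 91 in sgTrp53 + MYC tumors. Aldafermin + MYC tumors were at 0.100, 0.529, 0.461, 0.720 and 0.0296 CPM, so that replicates 1 and 5 lay within the range of the livers, whose highest library was at 0.126 CPM. In sgTrp53 + MYC tumors it was at 0.126, 0.392, 0.430, 0.0298 and 0.348 CPM, again with 3 high libraries. The highest FGF19 + MYC library was at 0.0910 CPM. The log2 fold changes against liver were 3.22 ± 0.98 (adjusted p = 0.00804) in Aldafermin + MYC, 2.76 ± 0.97 (adjusted p = 0.0193) in sgTrp53 + MYC and 0.50 ± 1.09 (adjusted p = 0.720) in FGF19 + MYC tumors.

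Foxp3 (chrX:7439883-7461484) had no read in 7 of the 20 libraries and fewer than 10 in 17. All 5 liver reads came from replicate 2 (0.166 CPM). sgTrp53 + MYC tumors were at 0.144, 0.286, 0.295, 0.0447 and 0.182 CPM, with a log2 fold change of 2.20 ± 1.11 (adjusted p = 0.0964). In Aldafermin + MYC tumors replicate 4 stood at 0.303 CPM and the others at 0.0755 CPM or less. Foxp3 passed the threshold against liver only when liver replicate 2 was left out, in Aldafermin + MYC (adjusted p = 0.0333) and in sgTrp53 + MYC tumors (adjusted p = 0.00855), where the remaining livers held no read. Foxp3 overlaps Flicr on its own strand and Ccdc22 and Ppp1r3f on the other in the annotation. Reads that the counting found over more than 1 gene model are not in its counts. How these overlaps affected its few reads was not tested.

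Against liver, 4 of the 10 genes (Cd4, Gzma, Gzmb and Pdcd1) rose in Aldafermin + MYC tumors and 0 fell, at a threshold of 0.05 on the adjusted p of edgeR's quasi-likelihood test. Of all 21610 genes tested, 33.9% rose and 23.2% fell in that comparison. In sgTrp53 + MYC tumors 3 of 10 rose (Cd4, Gzmb and Pdcd1) and 0 fell, against 34.7% and 22.6% of all genes. In FGF19 + MYC tumors 0 of 10 passed, and 0 also had an unadjusted p under 0.05 or passed with DESeq2 or edgeR's likelihood ratio test, against 31.7% of all genes higher and 23.6% lower (55.3% in either direction). The shares that rose in the first 2 comparisons were thus near those of all genes. The 3 comparisons share the livers. The members' median log2 fold change was 0.76 in Aldafermin + MYC, -0.03 in FGF19 + MYC and 0.91 in sgTrp53 + MYC tumors, beside medians of 0.29, 0.20 and 0.35 over all genes. Ranges that did not overlap the livers were seen for Cd4 and Gzmb in Aldafermin + MYC tumors, where 25.9% of all genes lay wholly above the livers and 19% wholly below. In FGF19 + MYC tumors 0 of the 10 genes lay wholly above or below the livers, against 26.8% and 21% of all genes, and in sgTrp53 + MYC tumors 0 did, against 26.7% and 18.4%.

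**Figure D2:**
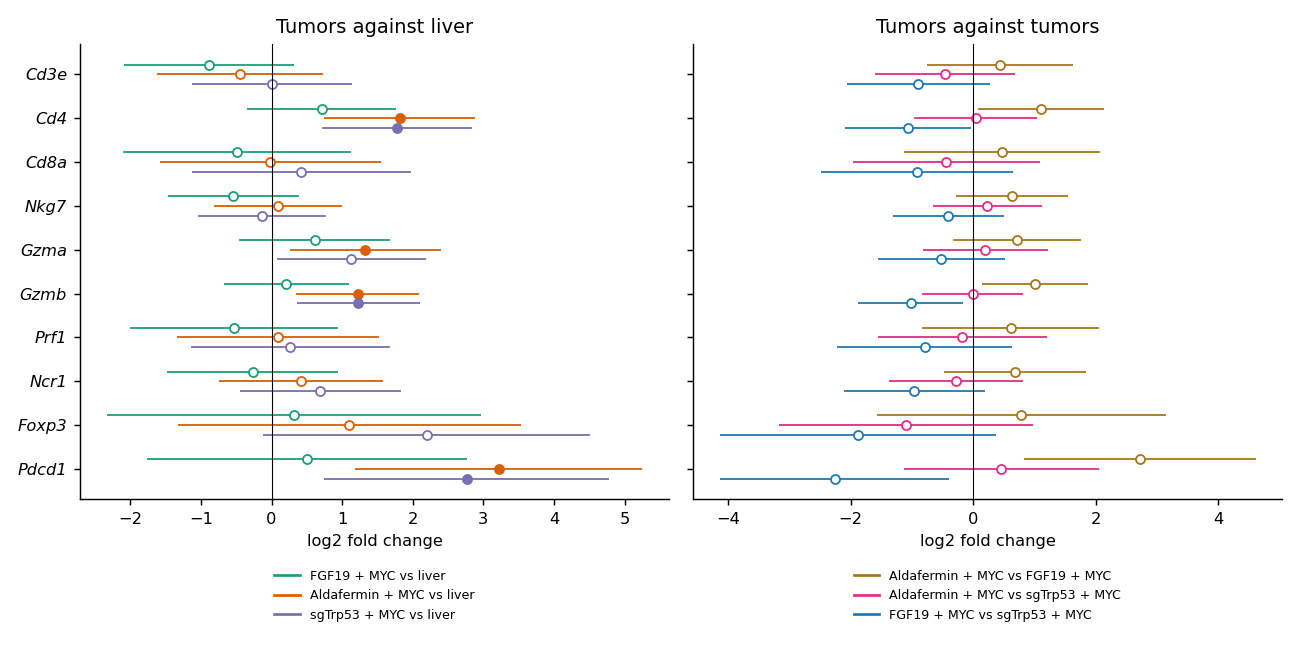
Log2 fold changes (horizontal axes) of the 10 marker genes in 3 comparisons of tumors with liver (left) and 3 between tumor groups (right), with 95% intervals of edgeR's quasi-likelihood test, 5 libraries per group. Filled circles passed an adjusted p of 0.05. The 7 filled circles at left belong to Cd4, Gzma, Gzmb and Pdcd1 and there is none at right, where all 10 values of Aldafermin + MYC against FGF19 + MYC are above 0.

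Aldafermin + MYC tumors were compared with FGF19 + MYC tumors because Aldafermin was designed from FGF19 by changes at the N-terminus. The times after injection are not in the labels. All 10 genes had a positive log2 fold change, with a median of 0.70 beside 0.03 over all genes, but 0 of 10 passed the threshold by edgeR's quasi-likelihood test, by DESeq2 or by edgeR's likelihood ratio test. In that comparison 0% of all genes passed the quasi-likelihood test. Unadjusted p-values under 0.05 were found for 3 genes. They were Pdcd1, with 2.72 and a 95% interval from 0.83 to 4.61, Cd4, with 1.10 (0.07 to 2.13), and Gzmb, with 1.01 (0.14 to 1.87), with adjusted p of 0.404, 0.597 and 0.544. Gzmb was the only member whose groups did not overlap, and 0.925% of all genes lay wholly higher and 0.315% wholly lower in Aldafermin + MYC tumors. The intervals of the other 7 genes included 0 and reached from -0.75 to 1.63 for Cd3e, from -1.12 to 2.06 for Cd8a and from -0.28 to 1.55 for Nkg7. These intervals include differences of more than 1 on the log2 scale, so that equal levels were not shown. Without replicate 4 of Aldafermin + MYC, Pdcd1 was at 2.34 (adjusted p = 0.384), Cd4 at 0.77 (0.700) and Foxp3 at -0.31 (0.980).

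Against sgTrp53 + MYC tumors, Aldafermin + MYC tumors differed in 0 of 10 genes (0 at an unadjusted p under 0.05, 0 with DESeq2 and 0 with the likelihood ratio test), against 5.82% of all genes higher and 7.61% lower. Cd4 differed by 0.04 ± 0.48, Gzmb by -0.01 ± 0.40 and Pdcd1 by 0.46 ± 0.76 on the log2 scale. FGF19 + MYC tumors were lower than sgTrp53 + MYC tumors in the fitted value of all 10 genes, with a median log2 fold change of -0.94 beside -0.13 over all genes. By edgeR's quasi-likelihood test, DESeq2 and the likelihood ratio test 0 of 10 passed, against 4.66% of all genes higher and 7.42% lower, and 3 had an unadjusted p under 0.05. These were Pdcd1 (-2.26 ± 0.90), Cd4 (-1.06 ± 0.49) and Gzmb (-1.02 ± 0.41), with adjusted p of 0.103, 0.161 and 0.109. Gzmb passed when replicate 4 of sgTrp53 + MYC was left out (-1.24, adjusted p = 0.0431). All 10 genes overlapped between sgTrp53 + MYC and each of the other tumor groups, where 3.8% and 4.58% of all genes lay wholly higher and lower in Aldafermin + MYC tumors and 3.77% and 5.83% in FGF19 + MYC tumors. Without replicate 3 of sgTrp53 + MYC, the values for FGF19 + MYC were -2.01 for Pdcd1, -0.38 for Cd4 and -0.82 for Gzmb, and those of Nkg7 (0.11) and Prf1 (0.13) were above 0. The comparisons between tumors share samples with each other.

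Replicate 3 of the sgTrp53 + MYC tumors was the highest library of its group for all 10 genes and held from 36.7% (Gzmb) to 64.6% (Prf1) of the group's reads of each. It had 120 of 221 reads of Cd3e, 592 of 1047 of Cd4 and 125 of 219 of Cd8a. Relative to the mean CPM of the other 4 tumors, Prf1 was 5.47 times, Cd8a 4.09 times, Cd4 4.01 times and Gzmb 1.74 times as high. Ptprc, the leukocyte common antigen CD45, was 2.47 times as high, at 25.9 CPM. Without this library the log2 fold change of Cd4 against liver was 1.09 ± 0.44 (adjusted p = 0.0404), of Gzmb 1.03 ± 0.43 (0.0490) and of Pdcd1 2.51 ± 1.01 (0.0404), so that 3 of 10 still rose. Cd3e was then at -0.62, Nkg7 and Prf1 at -0.66 and Cd8a at -0.27, and none of these 4 passed. Aldafermin + MYC tumors had no such library for all genes. There, replicate 4 was the highest for 6 genes and replicate 3 for 3, and without replicate 4, 3 of 10 rose (Cd4, Gzma and Pdcd1).

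**Figure D3:**
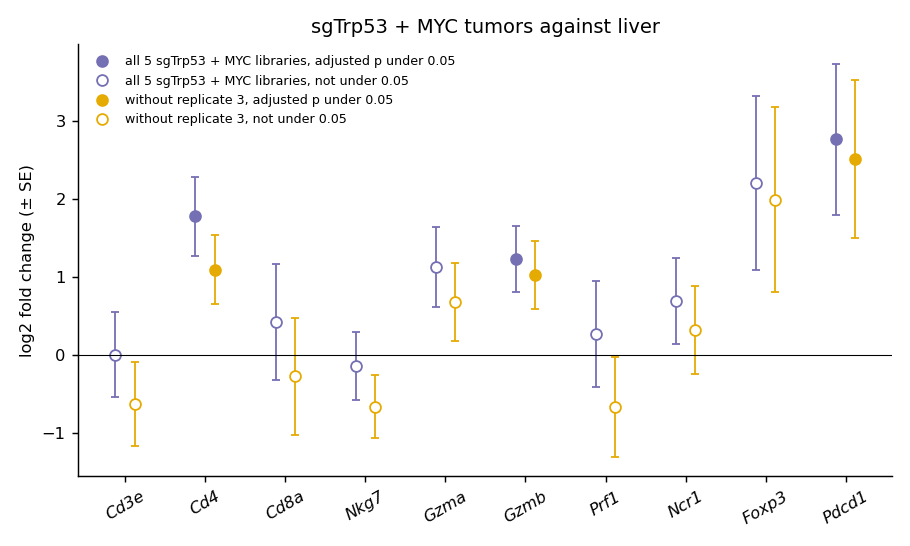
Log2 fold changes against liver with their SE for the 10 marker genes in sgTrp53 + MYC tumors, from the fit with all 5 tumor libraries (purple) and without replicate 3 (yellow). Filled circles passed an adjusted p of 0.05, and Cd4, Gzmb and Pdcd1 are filled in both fits. All 10 values are lower without replicate 3, which follows from its being the highest library of its group for all 10 genes. That of Cd4 moves from 1.77 to 1.09.

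Reads of the other genes were also set against those of Cd3e within each library. The log2 ratio of Cd4 to Cd3e reads within a library (0.5 added to each count) was 0.56 ± 0.68 (SD, n = 5) in livers, 2.65 ± 0.49 in Aldafermin + MYC, 2.06 ± 0.61 in FGF19 + MYC and 2.24 ± 0.42 in sgTrp53 + MYC tumors. The livers ranged from -0.37 to 1.16 and no tumor was below 1.53, so that each tumor group lay wholly above the livers. How many of all genes do so relative to Cd3e was not computed. Cd3e itself had log2 fold changes of -0.45 in Aldafermin + MYC and -0.89 in FGF19 + MYC tumors, which enter the ratio. In CPM, Cd4 of FGF19 + MYC tumors overlapped the livers and passed no test. The two-sided exact permutation p was 0.00794 in each of the 3 comparisons, which is the smallest that 5 against 5 libraries can give. After adjustment over all 54 comparisons of 9 genes between 6 pairs of groups it was 0.0857. Gzmb and Pdcd1 relative to Cd3e reached the same exact permutation p of 0.00794 (adjusted p = 0.0857) in Aldafermin + MYC tumors, with differences from liver of 1.71 and 2.85. Cd8a relative to Cd3e was at -0.50 ± 0.86 in livers and between -0.74 and -0.07 on average in the tumors. No ratio passed 0.05 after adjustment, and these ratios were chosen after the values had been seen. They use the same reads as the tests above.

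**Figure D4:**
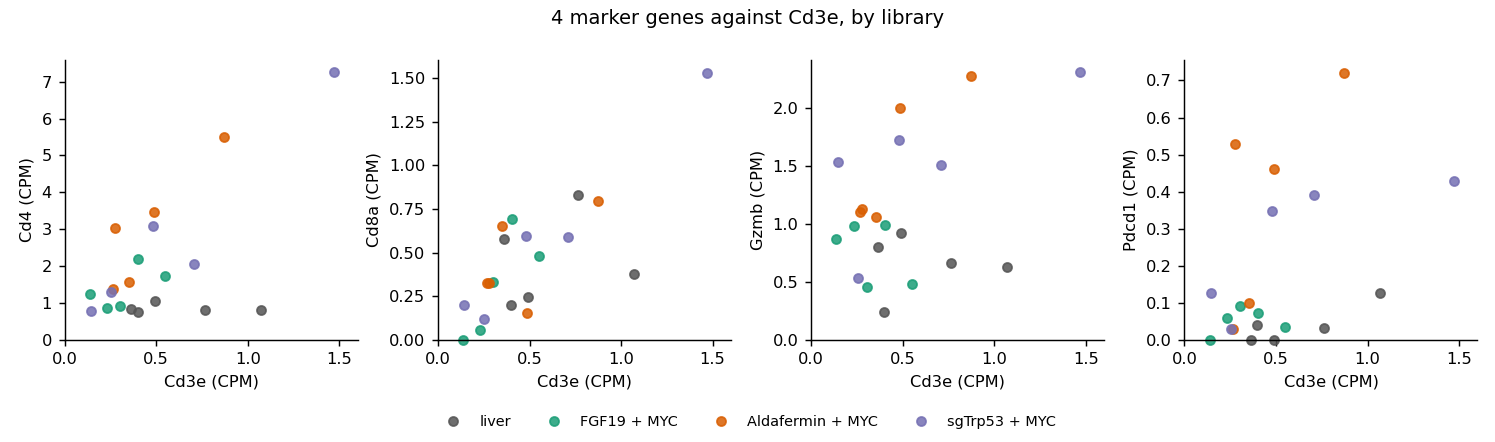
Levels in CPM of Cd4, Cd8a, Gzmb and Pdcd1 (vertical axes) against those of Cd3e (horizontal axes), 1 point per library, colored by group. In the Cd4 panel the 5 livers run along the bottom, from 0.757 to 1.04 CPM of Cd4, while their Cd3e values spread from 0.362 to 1.07 CPM.

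Among 66 other T and NK cell genes tested, 13 rose and 8 fell in Aldafermin + MYC, 6 rose and 14 fell in FGF19 + MYC and 14 rose and 7 fell in sgTrp53 + MYC tumors against liver, beside the shares of all genes given above. Without replicate 4 of Aldafermin + MYC the first became 10 and 9, and without replicate 3 of sgTrp53 + MYC the last became 12 and 10. Trac, Trbc1 and Trbc2, the constant genes of the T cell receptor chains, are listed at 0 in all 20 libraries and were not tested. Of 15 genes of the T cell receptor and its signalling, 1 rose and 1 fell in Aldafermin + MYC, 0 rose and 3 fell in FGF19 + MYC, and 2 rose and 1 fell in sgTrp53 + MYC tumors. Thy1 was the gene that rose in Aldafermin + MYC tumors (2.62 ± 0.48, adjusted p = 1.03e-04, edgeR). It also rose in sgTrp53 + MYC tumors (1.75 ± 0.47, adjusted p = 0.00333, edgeR), but not in FGF19 + MYC tumors (0.67 ± 0.47, adjusted p = 0.235, edgeR). Thy1 averaged 10.6 CPM in Aldafermin + MYC tumors and 1.72 CPM in livers, far above Cd3e, and which cells held it was not tested. Zap70, the kinase bound to the CD3 chains, had the lowest log2 fold change of the called genes in all 3 groups, at -4.75, -5.43 and -4.74. It was at 9.18, 16.9, 11.3, 27.5 and 36.0 CPM in livers and at most at 2.05 CPM in any tumor. In the livers it did not follow Cd3e, whose highest value was in replicate 1, where Zap70 was lowest. Zap70 fell along with 10 of 10 adult hepatocyte genes, whose summed level is given below; their part in it was not tested.

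Of 14 NK receptor genes, 3 rose and 0 fell in Aldafermin + MYC, 1 rose and 2 fell in FGF19 + MYC and 5 rose and 0 fell in sgTrp53 + MYC tumors. Sh2d1b1, the NK cell adaptor EAT-2, had the largest log2 fold change of the called genes in Aldafermin + MYC (4.40 ± 0.74) and FGF19 + MYC tumors (3.42 ± 0.74), from 11 reads in all livers. Of 13 further cytotoxic effector genes, 2 rose and 2 fell in Aldafermin + MYC tumors, 2 rose and 3 fell in FGF19 + MYC tumors and 2 rose and 2 fell in sgTrp53 + MYC tumors. Gzmc, another granzyme, was next in Aldafermin + MYC tumors (3.94 ± 1.19), where replicate 3 alone was at 3.41 CPM and the others at 0.529 CPM or less. Without that replicate it was at 2.15 (adjusted p = 0.0895). Ccl4, a chemokine of activated lymphocytes and macrophages, was second in FGF19 + MYC tumors (3.05 ± 0.86).

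In sgTrp53 + MYC tumors the largest values were those of Eomes, a T-box factor of NK cells and memory T cells (5.69 ± 1.29), and Itga2, an integrin of NK cells and of some epithelia (4.98 ± 1.07). Both rested largely on replicate 2, with 13 CPM of Eomes and 33.9 CPM of Itga2, where no member stood highest. Without it they were at 2.62 (adjusted p = 0.00933) and 2.17 (adjusted p = 0.00447). Of 14 regulatory and checkpoint genes, 5 rose and 3 fell in Aldafermin + MYC, 3 rose and 3 fell in FGF19 + MYC and 4 rose and 2 fell in sgTrp53 + MYC tumors. Those with the lowest values were Icos, a T cell costimulatory receptor (-2.95 in Aldafermin + MYC), Ikzf4, an Ikaros family factor (-3.75 in FGF19 + MYC), and Tox, a factor of exhausted T cells (-2.93 in sgTrp53 + MYC). Tox was at 20.4 ± 8.61 CPM (SD) in livers and at most at 7.97 CPM in any tumor. Cd3e was at 0.617 CPM on average in the same livers, and which cells held Tox was not tested. Of 10 genes of naive and tissue-resident T cells, 2 rose and 2 fell, 0 rose and 3 fell, and 1 rose and 2 fell in the same order of tumors. S1pr1 and Tcf7 fell in each of the 3 groups. They were at 83.0 and 12.6 CPM on average in livers, also far above Cd3e, and which cells held them was not tested.

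Between Aldafermin + MYC and FGF19 + MYC tumors 0 of the 66 passed. Of these genes 57 had a positive log2 fold change, beside a median of 0.03 over all genes. They were measured in the same libraries, so that their signs are not independent of each other. DESeq2 and edgeR's likelihood ratio test each called 2 of them. Against sgTrp53 + MYC tumors, Cd28, a costimulatory receptor, and Itga2 were lower in Aldafermin + MYC tumors (-3.22 ± 1.01 and -2.84 ± 0.93). Cd28 was at 12.8 CPM in replicate 5 of sgTrp53 + MYC and at 1.13 CPM or less in the other 4. Without that replicate the Cd28 value was -0.54 (adjusted p = 0.670), and without replicate 2 that of Itga2 was -0.04 (adjusted p = 0.976). The Cd28 call was also lost without replicate 1, 2, 3 or 5 of Aldafermin + MYC (adjusted p = 0.0813, 0.0791, 0.0654 and 0.0747), and that of Itga2 without any of the 5 (0.0552 to 0.0906).

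In FGF19 + MYC tumors Cd28 (-3.80 ± 1.06), Eomes (-3.38 ± 1.07), Klre1, a lectin-like NK receptor (-2.02 ± 0.58), and Klrb1c, which encodes NK1.1 (-1.33 ± 0.38), were lower than in sgTrp53 + MYC tumors. Eomes was at -0.32 without replicate 2 of sgTrp53 + MYC (adjusted p = 0.817), and its call was lost without any single FGF19 + MYC library (0.0682 to 0.0973). Cd28 was at -1.13 without replicate 5 of sgTrp53 + MYC (adjusted p = 0.334) and lost its call without replicate 3 or 4 of FGF19 + MYC (0.0625 and 0.0531). Klrb1c was at -1.01 and Klre1 at -1.54 without replicate 3 of sgTrp53 + MYC (adjusted p = 0.0819 and 0.0878). The Klrb1c call was lost as well without replicate 2 or 5 of FGF19 + MYC (0.0737 and 0.0653), and that of Klre1 without replicate 3, 4 or 5 of FGF19 + MYC (0.0540, 0.0622 and 0.0741) or replicate 5 of sgTrp53 + MYC (0.0591).

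Markers of other cells moved between the same groups. Adult hepatocyte genes fell in 10 of 10 in each tumor group, and their summed level was 163500 to 193200 CPM in livers but 3855 to 22010 CPM in tumors. Of 7 B and plasma cell genes, 6 fell in Aldafermin + MYC and 5 in each of the other tumors. Mast cell and basophil genes rose in 3, 1 and 4 of 6 in Aldafermin + MYC, FGF19 + MYC and sgTrp53 + MYC tumors, with Mcpt8 at 0 in the livers. Their summed level ran from 7.52 to 63.2 CPM in Aldafermin + MYC tumors, 5.37 to 7.15 in FGF19 + MYC, 10.1 to 25.1 in sgTrp53 + MYC and 4.47 to 7.79 CPM in livers. Macrophage and Kupffer cell genes rose in 2, 2 and 1 of 10 and fell in 5, 3 and 8. Dendritic cell genes, a possible further source of Cd4, rose in 1 of 7 in each tumor group and fell in 2, 1 and 2. Neutrophil genes rose in 2, 0 and 4 of 7, with Ly6g at 0 in the livers, and erythroid genes fell in 1, 4 and 4 of 6. Pan-leukocyte genes rose in 2, 2 and 1 of 5, and their summed level was 59.6 to 85.8 CPM in livers and 64.6 to 304.9 CPM in tumors. The part of these cells in the members' values was not tested.

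Across the 20 libraries the members' log2 CPM were mostly positively correlated, which is given as a description, since libraries share group, depth and composition. Of 45 pairs, 43 had a positive Spearman correlation, with a median of 0.36. The highest was Gzmb with Ncr1 (0.72) and the lowest Cd3e with Gzma (-0.25). The genes most like Cd3e over the 20 libraries, among 13717 genes compared, were Septin1 (0.91), Tgtp1 (0.85), Nfkb2 (0.84), Gimap3 (0.84) and Gbp2 (0.83). Those most like Nkg7 were Ccl5 (0.77), Aplp1 (0.74), Hes6 (0.72), Casz1 (0.72) and H2-Eb1 (0.70).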

How the data were processed

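RNA from 15 dissected tumors and 5 livers was sequenced. The deposited values are raw counts per gene symbol (2 tables), made by the authors from stranded mRNA libraries with HISAT2 on mm39 and htseq-count on the RefSeq annotation; 5 summary lines were removed, and all sample columns were used. Reads over overlapping gene models and reads aligned to several places stand in those lines and not in the gene counts. What this does to the granzymes, a multigene family, was not tested.

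The 10 genes and all lists were chosen with earlier results of these data known. Genes with at least 20 reads in all were kept, since a filter of 1 CPM in 5 libraries, used as an alternative, keeps only 4 of the 10. Counts were normalized by TMM and 1 quasi-likelihood model with 4 groups was fitted in edgeR 4.0.16 (R 4.3.3), with Benjamini-Hochberg adjustment over 21610 genes and a threshold of 0.05. The SE is the log2 fold change divided by the root of F. A group total of 3 reads or fewer was taken as the floor. None of the 10 genes was at or under it in any group, but 5 other genes counted as risen against liver were (Klra4, Fcer1a, Ms4a2, Ly6g and Mcpt8, with 0 to 3 liver reads), and no fold change is given for them. Alternatives were DESeq2 1.42.0, a likelihood ratio test, other size factors and filters, the compared groups alone, the replicate number as a block and each library left out. The tests were tried on simulated counts with 200 changed genes in Aldafermin + MYC against liver. In the data 57.1% of all genes passed there, so that this trial does not cover the scaling of such unlike libraries. Named genes were the 10 members, of the other T and NK cell genes the 2 largest and 2 smallest called log2 fold changes of each comparison, and the 5 genes most like Cd3e and Nkg7. Thy1, Serpinb9, Tnfsf10, S1pr1 and Tcf7 were named in addition, to show which genes the counts of their lists hold. Coordinates and exon lengths are from GENCODE M39 (GRCm39), promoters from RefSeq (GRCm38.p6, 9 of 10 genes matched). No library was a copy of another. Libraries are from different mice, and p-values measure the spread between these samples. Intervals on counts cover counting error only.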

Additional observations from a re-analysis of the deposited data

Results flagged for a closer look

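In 4 of 40 groups of 5 libraries (10 genes in 4 groups) the highest library lay far from the others, by its gap to the next library over the whole range of the group against a critical value of 0.71. For normally distributed values, chance flags about 1 in 20 groups, here 2. Values from few reads, such as those of Foxp3, need not follow that distribution, so that this rate is only a guide. Cd4 in liver replicate 4 had a ratio of 0.735, within a range of only 0.757 to 1.04 CPM. Prf1 in replicate 3 of the sgTrp53 + MYC tumors had 0.795, at 1.82 CPM against 0.480 CPM in the next library. Foxp3 in replicate 4 of the Aldafermin + MYC tumors had 0.751, and Foxp3 in liver replicate 2 had 1, since the other 4 livers held no read.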

How the results depend on the processing

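Of the calls against liver, Cd4 and Pdcd1 in Aldafermin + MYC and sgTrp53 + MYC tumors held in all fits that left out a library and in the other settings that tested them. DESeq2 size factors ended the calls of Gzma in Aldafermin + MYC (1.10, adjusted p = 0.0716) and of Gzmb in sgTrp53 + MYC tumors (0.97, 0.0546), leaving 3 and 2 of the 10 genes. With the likelihood ratio test, 4 genes rose in sgTrp53 + MYC tumors, and with a filter of 1 CPM in 5 libraries, which tests 4 of the 10, 3 and 2 rose. Leaving out single libraries gave 3 to 4 called genes in each of these comparisons, 0 to 1 for FGF19 + MYC against sgTrp53 + MYC, and 0 in the other 3 comparisons.

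Of the other T and NK cell genes, 18 to 23, 15 to 22 and 18 to 23 were called against liver when single libraries were left out (Aldafermin + MYC, FGF19 + MYC, sgTrp53 + MYC), and 12 in FGF19 + MYC with the filter of 1 CPM. Between Aldafermin + MYC and FGF19 + MYC tumors DESeq2 and the likelihood ratio test called 2 each, and leaving out libraries gave 0 to 1. Between Aldafermin + MYC and sgTrp53 + MYC tumors, where 2 were called, DESeq2 size factors gave 1, and the filter of 1 CPM, the block and the 2 groups alone gave 0, with 0 to 3 when libraries were left out. For FGF19 + MYC against sgTrp53 + MYC tumors, where 4 were called, the filter and the 2 groups alone gave 0 and the block 2, with 1 to 8 when libraries were left out. The causes were not tested.

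With the replicate number as a block, 3, 0 and 3 of the 10 genes were called against liver and 0 between tumors, and Gzma in Aldafermin + MYC tumors was at 1.09 (adjusted p = 0.0899). The numbers belong to different mice, the deviations of same-numbered libraries had correlations from -0.26 to 0.27, and at most 2 libraries in a comparison correlated best with their own number, so that no pairing was assumed.

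The sign turned in 62 of 984 values under alternatives, none of them past the threshold (smallest adjusted p = 0.332). Against liver in Aldafermin + MYC tumors, Nkg7 was at -0.13 with DESeq2 and with its size factors, -0.0647 with the 1 CPM filter and -0.0167 with the 2 groups alone, Prf1 at -0.14, -0.14, -0.0785 (block) and -0.0150 (2 groups), and Cd8a at 0.21 (block). In sgTrp53 + MYC tumors, Cd3e was at -0.27 with DESeq2 and with its size factors and -0.14 with the block, and Prf1 at -0.0068 and -0.0042. Gzmb in Aldafermin + MYC against sgTrp53 + MYC tumors was at 0.0294 with DESeq2, 0.0334 with its size factors, 0.0953 (1 CPM), 0.0031 (block) and 0.0388 (2 groups). Leaving out single libraries gave these ranges. In Aldafermin + MYC against liver they were -0.31 to 0.34 for Cd8a, -0.13 to 0.26 for Nkg7 and -0.29 to 0.36 for Prf1. In FGF19 + MYC against liver they were -0.0056 to 0.36 for Gzmb, -0.48 to 0.14 for Ncr1 and -0.23 to 4.00 for Foxp3. In sgTrp53 + MYC against liver they were -0.62 to 0.28 for Cd3e, -0.27 to 0.78 for Cd8a, -0.66 to 0.0513 for Nkg7 and -0.66 to 0.52 for Prf1. In Aldafermin + MYC against FGF19 + MYC the range was -0.31 to 1.33 for Foxp3. In Aldafermin + MYC against sgTrp53 + MYC they were -0.82 to 0.17 for Cd3e, -0.30 to 0.72 for Cd4, -0.73 to 0.25 for Cd8a, -0.0048 to 0.64 for Gzma, -0.23 to 0.19 for Gzmb, -0.56 to 0.745 for Prf1 and -0.54 to 0.0911 for Ncr1. In FGF19 + MYC against sgTrp53 + MYC they were -0.65 to 0.11 for Nkg7 and -1.22 to 0.13 for Prf1. Depth limits Foxp3, Ncr1 and Pdcd1 most, which had fewer than 10 reads in 17, 13 and 14 of the 20 libraries.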
